A study of Mus musculus with 12 samples.

Results

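The 8 ETS transcription factors considered here were Etv1, Etv4 and Etv5 of the PEA3 subfamily, Ets1 and Ets2 of the ETS subfamily, and the ternary complex factors Elk1, Elk3 and Elk4. They were taken by name as the ETS proteins usually placed downstream of the kinase ERK. The rule uses no measured value, though it was set with earlier results of these data known. They are 8 of the 26742 genes of the count table, and all 8 were among the 16627 genes with enough reads to be tested.

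The RNA came from mouse embryonic stem (ES) cells of the 129 or the B6J genetic background, labelled male and grown in medium with serum and the cytokine LIF. Cells received either 1 µM of the MEK inhibitor PD 0325901 (iMEK) or the solvent DMSO each day, and RNA was taken at day 5. MEK is the kinase that activates ERK. The 4 groups were 129 cells with iMEK, 129 cells with DMSO, B6J cells with iMEK and B6J cells with DMSO, with 3 libraries each. Each background is labelled by 1 genotype with no clone named, so the background and the particular line used cannot be told apart. The labels do not state whether the replicate libraries are separate cultures. The p-values therefore describe the variation among these 12 libraries, and it may be technical.

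ETS factors share a DNA-binding domain that recognises a GGAA core. ERK reaches them in different ways. The ternary complex factors sit with serum response factor (SRF) on the promoters of immediate early genes and are switched on when ERK phosphorylates them. Ets1 and Ets2 are phosphorylated by ERK next to their Pointed domain. The PEA3 factors are phosphorylated too, but they are also known as transcriptional targets of FGF and ERK signalling, kept low by the repressor Capicua (Cic) until ERK relieves it, and their proteins are marked for degradation by the ubiquitin ligase Cop1. In mouse ES cells ERK signalling, driven largely by Fgf4, moves cells out of the naive state, and MEK inhibitors are used to hold them in it.

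The PEA3 genes gave the contrast on which most results turn, so their most similar stretch is shown first, because reads from near-identical copies could be shared between them. The 90 coding bases below are the window most alike in the 3 genes and code for the end of the ETS domain. They are read 5′ to 3′ on the coding strand of GRCm38 with GENCODE M21 transcripts, and each spans 2 exons. Capitals mark the 16 positions at which the 3 sequences are not all alike. The Etv1 window lies on the plus strand of chr12:38861362-38865610 in exons 13 and 14, the Etv4 window on the minus strand of chr11:101770528-101770995 in exons 12 and 13, and the Etv5 window on the minus strand of chr16:22383629-22386783 in exons 12 and 13.
Etv1: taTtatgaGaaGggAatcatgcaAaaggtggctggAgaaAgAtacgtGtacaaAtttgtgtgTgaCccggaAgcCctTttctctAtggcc
Etv4: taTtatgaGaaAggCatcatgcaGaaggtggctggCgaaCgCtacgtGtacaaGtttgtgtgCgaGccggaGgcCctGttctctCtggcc
Etv5: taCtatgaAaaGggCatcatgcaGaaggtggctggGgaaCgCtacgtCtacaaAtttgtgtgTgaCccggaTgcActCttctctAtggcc
Across their whole coding sequences the longest run of identical bases was 18 for Etv1 and Etv4, 23 for Etv1 and Etv5 and 23 for Etv4 and Etv5. Over all 28 pairs of the 8 genes it was 10 to 23 bases. The read length is not given in the sources used here.

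The libraries held between 62634533 and 96341637 counts each. All 10 ES cell markers were detected in every library. The best known of them, Pou5f1, stood at 659.8 to 899.1 CPM (counts relative to library size, scaled by the trimmed mean of M-values, TMM). The highest by mean, Dppa5a, stood at 495.3 to 1128 CPM. The summed level of the 10 was 5454 to 5531 CPM in 129 with iMEK and 3515 to 4753 CPM in 129 with DMSO. In B6J cells it was 5336 to 5577 CPM with iMEK and 4493 to 5428 CPM with DMSO. With iMEK, 6 of the 10 were called higher and 1 lower in 129 cells, and 5 higher and 2 lower in B6J cells. Replicate 1 of 129 with DMSO stood apart. Its summed level of 18 primitive endoderm markers was 15850 CPM, against 2166 and 2199 CPM in the other 2 libraries of its group and 2752 to 5312 CPM in the other 9 libraries. That sum is weighted to its highest genes, such as Sparc with a mean of 1429 CPM. Outside replicate 1 of 129 with DMSO it was 3754 to 5312 CPM with iMEK and 2166 to 2800 CPM with DMSO. The mean log2 CPM of the 18 (0.1 CPM added) was 6.335 in that library and 2.71 to 3.673 in the others. In the same library the summed level of 12 endothelial markers was 466.2 CPM, against 84.22 to 139.6 CPM elsewhere. Flt1 alone held 387.6 CPM of that sum, and most of the 12 genes were highest in other libraries. The summed level of 20 fibroblast markers also differed with treatment, at 6885 to 11020 CPM in 129 with iMEK, 3104 to 6127 CPM in 129 with DMSO, 6221 to 10520 CPM in B6J with iMEK and 4390 to 5271 CPM in B6J with DMSO. Neither this sum nor the mean log2 level of the 20 genes overlapped between iMEK and DMSO in either background. A fit below with these markers as covariate therefore extrapolates across treatments and may remove or add part of a treatment effect. Of these 20 genes, 14 were higher and 1 lower with iMEK in 129 cells, and 11 were higher and 0 lower in B6J cells. Over all genes tested, 17.4% were called higher and 18.2% lower in 129 cells, and 14.6% higher and 16.5% lower in B6J cells. No marker of any list was at 0 in every library. In such bulk RNA, fewer cells of a type and less RNA per cell cannot be told apart.

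Etv4 was the one member whose RNA fell with MEK inhibition in both backgrounds. It had 34.19, 32.04 and 30.21 CPM in 129 cells with iMEK, against 61.44, 63.91 and 65.04 CPM in 129 cells with DMSO. In B6J cells it had 24.39, 32.14 and 39.81 CPM with iMEK, against 121.3, 105.7 and 101.6 CPM with DMSO. Every iMEK library lay below every DMSO library of either background. The log2 fold change was -0.98 in 129 cells (SE 0.144, 95% interval -1.30 to -0.67, adjusted p = 0.000347), a ratio of 0.507. It was -1.77 in B6J cells (SE 0.147, 95% interval -2.09 to -1.45, adjusted p = 6.39e-06), a ratio of 0.293. Both p-values are from edgeR's quasi-likelihood test with Benjamini-Hochberg adjustment over all 16627 genes, as are all adjusted p-values here unless another test is named.

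Etv4 was called lower in both backgrounds under every alternative tried, with log2 fold changes of -1.14 to -0.94 in 129 cells and -1.94 to -1.58 in B6J cells. With the fibroblast marker level of each library as a covariate the values were -1.14 and -1.9. These ranges include the fits without replicate 1 of 129 with DMSO. Etv4 lies on chromosome 11 at 101769742 to 101785371, minus strand (GRCm38), and no annotated gene shared its exons.

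The level of Etv4 with DMSO differed between the backgrounds, and the level with iMEK did not differ detectably. With iMEK it averaged 32.11 ± 7.71 CPM in B6J cells and 32.15 ± 1.995 CPM in 129 cells (SD, n = 3 each), a log2 difference of -0.001 with a 95% interval of -0.32 to 0.31 (adjusted p = 0.998). With DMSO it averaged 109.5 ± 10.4 CPM in B6J cells and 63.46 ± 1.84 CPM in 129 cells (SD, n = 3 each), a log2 difference of 0.79 (SE 0.143, adjusted p = 0.00243) that was called under all 22 alternatives. The order of its group levels was thus B6J with DMSO, 129 with DMSO, and then both iMEK groups, which did not differ beyond their spread.

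The response of Etv4 in B6J cells minus that in 129 cells was -0.79 (SE 0.202, unadjusted p = 0.00231, adjusted p = 0.0915), which did not pass the threshold. It passed in 2 of the 21 alternatives, with DESeq2 (-0.78, adjusted p = 0.0168) and without replicate 3 of B6J with iMEK (-0.97, adjusted p = 0.0246). That library had the highest Etv4 level of its group. It also had the highest fibroblast marker sum of its group, 10520 CPM, and the part of that in the Etv4 value was not tested. These comparisons share their groups, so the values of Etv4 in them are not independent.

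**Figure D1:**
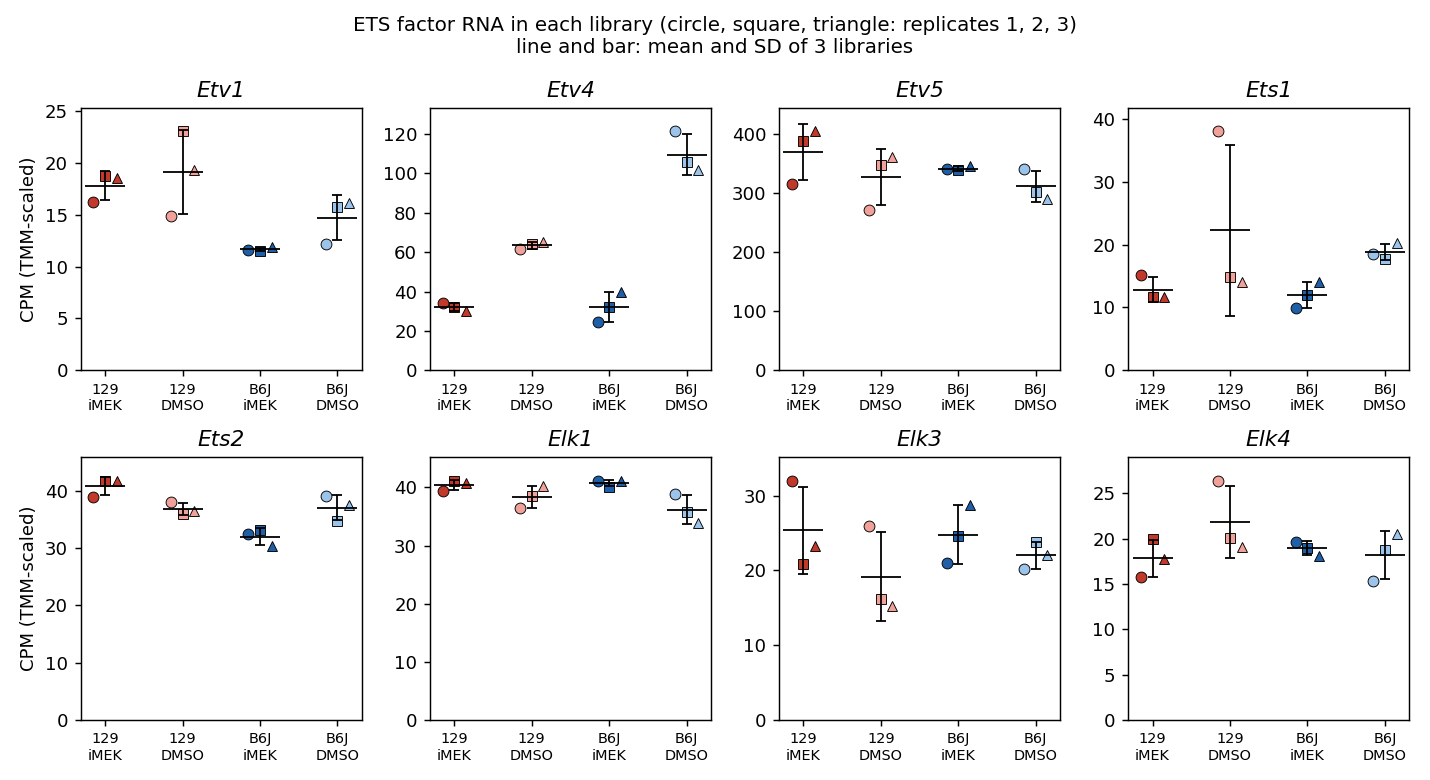
RNA level in CPM (vertical axis, from 0, scale set for each gene) of the 8 ETS factors in the 12 libraries, by group. Symbols are libraries (circle, square and triangle for replicates 1, 2 and 3), lines are means and bars are SDs of 3 libraries. Etv4 lies at 24.39 to 39.81 CPM in the iMEK libraries and at 61.44 to 121.3 CPM in the DMSO libraries, and Ets1 is highest in replicate 1 of 129 with DMSO.

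Etv5, the closest relative of Etv4 in function in the mouse kidney and limb, did not show that fall. It had 315.7, 387.9 and 404.6 CPM in 129 cells with iMEK, against 272.4, 348 and 361.3 CPM in 129 cells with DMSO. The B6J libraries held 340.7, 338.6 and 345.7 CPM with iMEK, against 340.8, 302.4 and 290.9 CPM with DMSO. The groups overlapped in both backgrounds. The log2 fold change was 0.17 in 129 cells (95% interval -0.08 to 0.43, adjusted p = 0.265) and 0.13 in B6J cells (95% interval -0.12 to 0.39, adjusted p = 0.424), so both intervals leave out a fall of the size seen for Etv4.

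Within the 129 libraries the replicate numbers were taken to pair the samples, which is not settled for the libraries numbered 2 and 3. Each iMEK library had more Etv5 than the DMSO library of its number. A fit of the 129 groups alone with the replicate number as a block was chosen after seeing the data. Its log2 fold change of Etv5 was 0.17 (adjusted p = 0.0378). With the fibroblast covariate, which has the limit given above, it was 0.50 in 129 cells (adjusted p = 0.00475) and 0.39 in B6J cells (adjusted p = 0.00992). In no alternative was the value below 0 in either background. Etv5 lies on chromosome 16 at 22381309 to 22439719, minus strand.

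Because the 2 genes share a ligase and a repressor as known regulators, their ratio was taken within each library. Etv4 RNA per kilobase of exon was 14.32, 10.92 and 9.87% of that of Etv5 in 129 cells with iMEK, against 29.81, 24.27 and 23.8% in 129 cells with DMSO. The B6J values were 9.461, 12.54 and 15.22% with iMEK, against 47.03, 46.21 and 46.15% with DMSO. No iMEK library reached the lowest DMSO library. The log2 ratio of Etv4 to Etv5 was lower with iMEK by an average of -1.55 over the backgrounds, -1.16 in 129 cells and -1.93 in B6J cells. A two-sided exact permutation test of treatment within each background (n = 3 each) gave p = 0.005, the smallest that its 400 arrangements allow. This test was not planned. It uses the Etv4 values given above, which already separated the iMEK from the DMSO libraries, so it is not separate evidence.

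Etv5 was also the most abundant of the 8 per kilobase of exon in every library. Of the summed CPM per kilobase of the 8 genes it made up 71.2 ± 3.5% in 129 cells with iMEK, 63.4 ± 4.9% in 129 cells with DMSO, 71.0 ± 1.9% in B6J cells with iMEK and 56.0 ± 0.8% in B6J cells with DMSO (SD, n = 3 each). Etv4 was next with DMSO, at 16.3 ± 0.8% in 129 cells and 26.1 ± 0.6% in B6J cells (SD, n = 3 each). With iMEK its share was 8.3 ± 1.2% in 129 cells and 8.8 ± 1.8% in B6J cells (SD, n = 3 each). The mean share of Elk1 with iMEK was 6.0% in 129 cells and 6.5% in B6J cells.

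**Figure D2:**
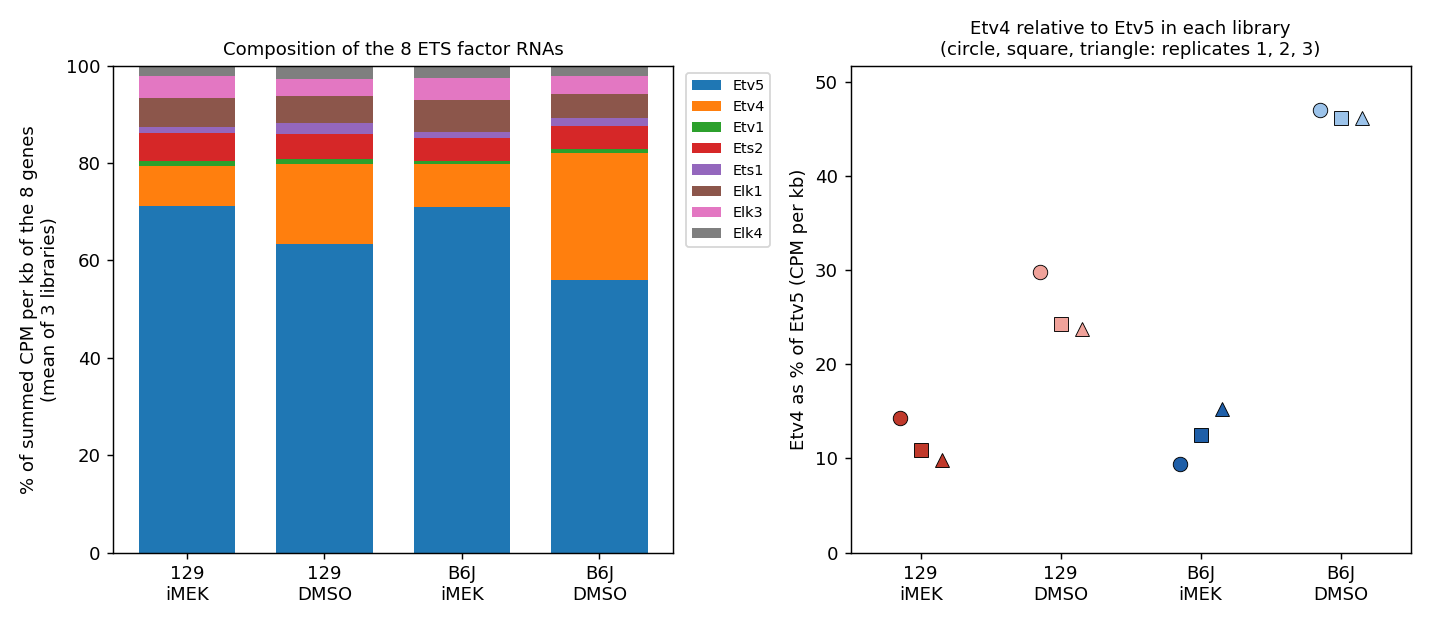
Left, mean share of each gene in the summed CPM per kilobase of the 8 ETS factors (vertical axis, percent) in each group of 3 libraries. Right, Etv4 as a percentage of Etv5 per kilobase in each library (vertical axis, percent), with symbols for replicates. The iMEK libraries lie at 9.461 to 15.22% and the DMSO libraries at 23.8 to 47.03%.

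Etv1, the remaining PEA3 gene, had the lowest mean level of the 3, and its one call was between the backgrounds with iMEK. It had 16.19, 18.69 and 18.51 CPM in 129 cells with iMEK, against 14.92, 23.03 and 19.33 CPM in 129 cells with DMSO. In B6J cells it had 11.64, 11.49 and 11.85 CPM with iMEK, against 12.21, 15.76 and 16.12 CPM with DMSO. The 3 B6J libraries with iMEK were the lowest of all 12.

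The responses of Etv1 to iMEK were not called, with log2 fold changes of -0.10 in 129 cells (adjusted p = 0.631) and -0.33 in B6J cells (95% interval -0.67 to 0.00, adjusted p = 0.125). With iMEK, Etv1 was lower in B6J than in 129 cells by a log2 difference of -0.61 (SE 0.154, adjusted p = 0.0162). Leaving out replicate 2 or 3 of 129 with iMEK, or replicate 1 or 2 of B6J with iMEK, ended that call, with adjusted p up to 0.068. With DMSO the difference was -0.38 (adjusted p = 0.107). The gene lies on chromosome 12 at 38779380 to 38870484, plus strand.

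Across the 8 members, 1 was called with iMEK in 129 cells (Etv4, lower), where 35.7% of all genes tested were called, 18.2% lower and 17.4% higher. In B6J cells 2 were called (Etv4 and Ets2, both lower), where 31.1% of all genes were, 16.5% lower and 14.6% higher. Neither count stands above the share of all genes. None was called higher in either background. With the replicate block in the 129 groups alone, an alternative chosen after seeing the data, 2 were called higher (Etv5 at 0.17 and Elk3 at 0.42, adjusted p = 0.0378 and 0.0208). Without the block, for that direction in 129 cells edgeR gave 0 members also at an unadjusted p under 0.05, as did DESeq2 and limma-voom at an adjusted p under 0.05. In B6J cells Elk1 passed the unadjusted p and DESeq2, and limma-voom called 0. The iMEK and DMSO libraries did not overlap for 2 members in 129 cells, against 47.4% of all genes tested, and for 5 in B6J cells, against 50% of all genes. The median log2 fold change of the 8 was -0.01 in 129 cells and -0.08 in B6J cells, beside -0.01 and 0.00 for all genes tested.

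**Figure D3:**
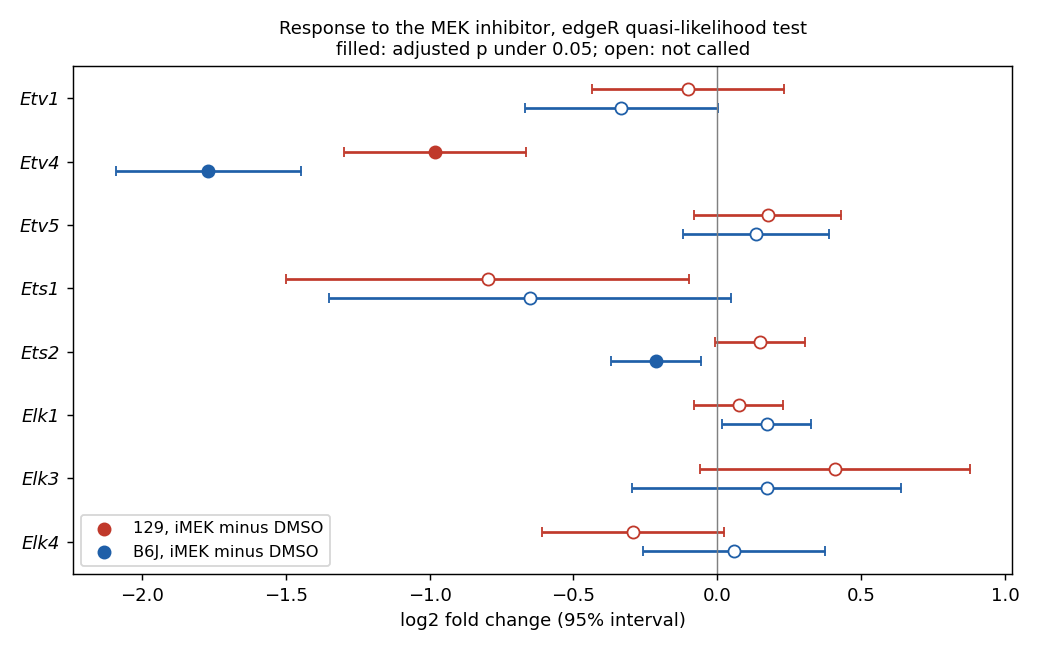
Log2 fold change with iMEK against DMSO (horizontal axis) of the 8 ETS factors in 129 and B6J cells, with 95% intervals from edgeR's quasi-likelihood fit. Filled points are called at an adjusted p under 0.05 and open points are not. Etv4 lies at -0.98 and -1.77, Ets2 is called in B6J cells alone at -0.21, and the other points are open.

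Ets1 RNA had lower mean values with iMEK in both backgrounds, but the difference was not called in either. It had 15.13, 11.61 and 11.71 CPM in 129 cells with iMEK, against 37.99, 14.84 and 13.98 CPM in 129 cells with DMSO. Its B6J levels were 9.934, 12.03 and 14 CPM with iMEK, against 18.51, 17.72 and 20.22 CPM with DMSO. In B6J cells the groups did not overlap, and in 129 cells replicate 1 with iMEK lay above the lower 2 DMSO libraries. The log2 fold changes were -0.80 in 129 cells (SE 0.320, adjusted p = 0.0721) and -0.65 in B6J cells (SE 0.319, adjusted p = 0.149).

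One library decided the size of the 129 value of Ets1 and the call in B6J cells. The highest level, 37.99 CPM, was in replicate 1 of 129 with DMSO. That library had 15850 CPM of primitive endoderm markers and 466.2 CPM of endothelial markers, the latter mostly Flt1. Without it the log2 fold change in 129 cells was -0.17 (adjusted p = 0.418). The value in B6J cells stayed at -0.65 and was called (adjusted p = 0.00351). Ets1 is known from endothelial and lymphoid cells. Most primitive endoderm markers, and of the endothelial markers chiefly Flt1, were also highest in that library. Their part in the result was not tested. With the fibroblast covariate, which did not overlap between treatments, the log2 fold changes were -1.65 in 129 cells (adjusted p = 5.26e-05) and -1.47 in B6J cells (adjusted p = 8.69e-05). DESeq2 called the 129 value (-0.79, adjusted p = 0.0384). Ets1 lies on chromosome 9 at 32636221 to 32757820, plus strand, and the antisense gene Gm27240 overlaps it without sharing exon bases.

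Ets2, its close paralog, was expressed evenly and changed little. It had 38.93, 41.73 and 41.69 CPM in 129 cells with iMEK, against 38.01, 35.88 and 36.48 CPM in 129 cells with DMSO. The B6J libraries had 32.41, 33.22 and 30.35 CPM with iMEK, against 39.01, 34.69 and 37.45 CPM with DMSO. The groups did not overlap in either background, with the iMEK libraries above DMSO in 129 cells and under DMSO in B6J cells.

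The log2 fold change of Ets2 was 0.15 in 129 cells (SE 0.071, adjusted p = 0.127) and -0.21 in B6J cells (SE 0.071, adjusted p = 0.0423). The B6J value was called in 8 of 22 alternatives, with adjusted p between 0.022 and 0.138, and the call was lost with DESeq2 size factors (0.0522), with no filter (0.0809), with the fibroblast covariate (0.135) and with several single libraries left out. The difference between the responses, B6J minus 129, was -0.36 (SE 0.101, unadjusted p = 0.00419, adjusted p = 0.121). With iMEK, Ets2 averaged 31.99 ± 1.48 CPM in B6J cells and 40.78 ± 1.61 CPM in 129 cells (SD, n = 3 each), a log2 difference of -0.35 (SE 0.072, adjusted p = 0.0051) that was called under all 22 alternatives. With DMSO it averaged 37.05 ± 2.19 CPM in B6J cells and 36.79 ± 1.102 CPM in 129 cells (SD, n = 3 each), a difference of 0.01 (adjusted p = 0.943). Ets2 lies on chromosome 16 at 95702075 to 95721051, plus strand.

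None of the ternary complex factors was called with iMEK. Elk1, the one best known as an ERK substrate, had the smallest span of group means of the 8, 0.17 on the log2 scale. It had 39.39, 41.13 and 40.78 CPM in 129 cells with iMEK and 36.43, 38.55 and 40.23 CPM in 129 cells with DMSO. In B6J cells Elk1 had 41.03, 40.14 and 41.06 CPM with iMEK, against 38.81, 35.85 and 33.85 CPM with DMSO. Its libraries with iMEK lay above those with DMSO in B6J cells and overlapped them in 129 cells. The log2 fold changes were 0.07 in 129 cells (95% interval -0.08 to 0.23, adjusted p = 0.439) and 0.17 in B6J cells (95% interval 0.02 to 0.33, adjusted p = 0.0877). The B6J value was called in 4 of 22 alternatives.

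Elk3, known for repressing SRF targets until ERK phosphorylates it and expressed in endothelial cells and fibroblasts, moved with the fibroblast markers. It had 31.96, 20.87 and 23.3 CPM in 129 cells with iMEK, against 25.99, 16.17 and 15.2 CPM in 129 cells with DMSO. In B6J cells it had 20.93, 24.55 and 28.77 CPM with iMEK, against 20.11, 23.77 and 22.08 CPM with DMSO. In each group the library with the most Elk3 was the one with the highest fibroblast marker sum, at 11020 CPM in 129 with iMEK, 6127 CPM in 129 with DMSO, 10520 CPM in B6J with iMEK and 5271 CPM in B6J with DMSO.

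The log2 fold change of Elk3 was 0.41 in 129 cells (SE 0.214, adjusted p = 0.161) and 0.17 in B6J cells (SE 0.213, adjusted p = 0.591). With the replicate number as a block in the 129 groups alone it was 0.42 (adjusted p = 0.0208), and without replicate 1 of 129 with DMSO it was 0.70 (adjusted p = 0.0102). With the fibroblast covariate the sign turned, to -0.28 in 129 cells (adjusted p = 0.0493) and -0.40 in B6J cells (adjusted p = 0.00479). The covariate did not overlap between iMEK and DMSO in either background, so that fit cannot fully separate the markers from the treatment. For that reason, and because neither value of the main fit was called, no direction is given for Elk3.

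**Figure D4:**
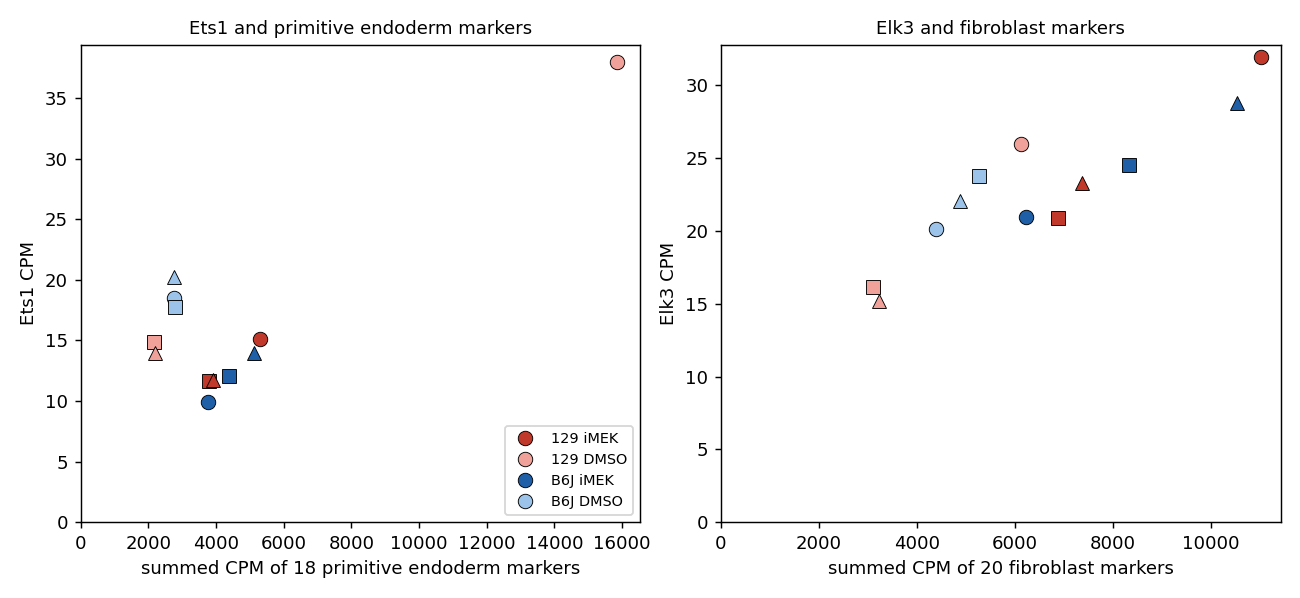
Left, Ets1 level in CPM against the summed CPM of 18 primitive endoderm markers in each of the 12 libraries. That sum is weighted to its highest genes, such as Sparc. Right, Elk3 level in CPM against the summed CPM of 20 fibroblast markers. Circles, squares and triangles are replicates 1, 2 and 3, and replicate 1 of 129 with DMSO lies at 37.99 CPM of Ets1 and 15850 CPM of markers.

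Elk4, also called SAP-1, ranged from 15.3 to 26.38 CPM, with its highest value again in replicate 1 of 129 with DMSO. It averaged 17.83 ± 2.06 CPM in 129 cells with iMEK, against 21.83 ± 3.97 CPM in 129 cells with DMSO (SD, n = 3 each). In B6J cells it averaged 18.92 ± 0.77 CPM with iMEK, against 18.17 ± 2.63 CPM with DMSO (SD, n = 3 each). The groups overlapped in both backgrounds, and the log2 fold changes were -0.29 (adjusted p = 0.137) and 0.06 (adjusted p = 0.799). Without replicate 1 of 129 with DMSO the 129 value was -0.13 (adjusted p = 0.45).

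The 3 Elk genes share exon bases with neighbours in the annotation, which bears on their counts because the strand setting of the counting is not given in the sources used here. Elk1 (chromosome X, 20933395 to 20950608, minus strand) shares 76 bases with Uxt on the same strand. Elk3 (chromosome 10, 93247414 to 93311135, minus strand) shares 316 bases with Cdk17 on the other strand. Elk4 (chromosome 1, 132007607 to 132032612, plus strand) shares 84 bases with Mfsd4a on the other strand and 104 with Gm29103 on its own.

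The difference between the responses of the backgrounds was called for 0 of the 8 members, where it was called for 1.48% of all genes tested. At an unadjusted p under 0.05 edgeR's quasi-likelihood test gave 2, Etv4 and Ets2, DESeq2 called 2 at an adjusted p under 0.05 and limma-voom called 0. Between backgrounds, 1 member differed with DMSO (Etv4, higher in B6J), where 20.9% of all genes did, 10.4% higher and 10.5% lower. With iMEK 2 differed (Etv1 and Ets2, lower in B6J), where 18.4% of all genes did, 8.9% higher and 9.47% lower. The B6J and 129 libraries did not overlap for 1 member with DMSO, against 36.9% of all genes tested, and for 2 with iMEK, against 38.5%. These comparisons share groups with the responses and with each other.

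Other ETS genes were called about as often as all genes. Of 16 tested, 6 rose with iMEK in 129 cells (Ehf, Elf4, Erf, Erg, Spi1 and Spic) and none fell. For the lower direction there edgeR gave 1 at an unadjusted p under 0.05, and DESeq2 and limma-voom called 0. In B6J cells 4 rose (Ehf, Elf4, Spi1 and Spic) and 2 fell (Etv2 and Spib). That is 6 of 16 in each background, where 35.7% of all genes tested were called in 129 cells and 31.1% in B6J cells. The median of the 16 was a log2 fold change of 0.13 in 129 cells and 0.10 in B6J cells.

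Spic, a PU.1-related factor known from red pulp macrophages, had the largest rise of the named genes of this list in both backgrounds. It averaged 13.8 ± 2.1 CPM in 129 cells with iMEK and 2.52 ± 0.92 CPM in 129 cells with DMSO (log2 fold change 2.46, SE 0.266, adjusted p = 4.21e-05), and 11.8 ± 2.3 CPM in B6J cells with iMEK and 1.14 ± 0.17 CPM in B6J cells with DMSO (3.37, SE 0.280, adjusted p = 6.47e-06; SD, n = 3 each). Elf4 averaged 23.8 ± 1.9 CPM in 129 cells with iMEK and 13.2 ± 2.1 CPM in 129 cells with DMSO, with log2 fold changes of 0.85 in 129 cells and 1.04 in B6J cells (adjusted p = 0.000232 and 6.07e-05; SD, n = 3 each). Ehf, an epithelial ETS factor, also rose in both (log2 fold changes 2.10 and 3.01, adjusted p = 0.00451 and 0.00244) but stayed low, at 1.52 ± 0.24 CPM in 129 cells with iMEK and 0.35 ± 0.26 CPM in 129 cells with DMSO (SD, n = 3 each). Its 129 call was lost with the fibroblast covariate (1.55, adjusted p = 0.0553).

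Erf, an ETS repressor that ERK phosphorylates and moves out of the nucleus, rose in 129 cells, with 133.3 ± 5.5 CPM with iMEK and 95.2 ± 11.3 CPM with DMSO (log2 fold change 0.49, SE 0.1001, adjusted p = 0.00314; SD, n = 3 each). Its B6J mean was 133.0 ± 9.0 CPM with iMEK and 132.7 ± 14.0 CPM with DMSO (0.00, adjusted p = 0.987; SD, n = 3 each). The difference between these responses was not called (-0.48, adjusted p = 0.136). Etv3, Etv6 and Gabpa were not called in either background, with log2 fold changes of -0.32 to 0.06 in 129 cells and 0.01 to 0.29 in B6J cells. Etv6 was higher in B6J than in 129 cells, by 0.47 with iMEK and 0.51 with DMSO (adjusted p = 0.00423 and 0.00253).

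Of 12 genes known to control the PEA3 factors, 2 rose (Cic and Trib2) and 3 fell (Atxn1l, Cul4a and Trib1) with iMEK in 129 cells. In B6J cells 1 rose (Cic) and 5 fell (Atxn1l, Cul4a, Det1, Trib1 and Trib3). These counts, 5 and 6 of 12, stand beside 35.7% of all genes called in 129 cells and 31.1% in B6J cells. The repressor Cic rose in both, to 202.1 ± 20.2 CPM in 129 cells with iMEK, against 149.3 ± 8.1 CPM with DMSO, and to 215.7 ± 8.0 CPM in B6J cells with iMEK, against 166.2 ± 13.4 CPM with DMSO (SD, n = 3 each). Its log2 fold changes were 0.44 and 0.38 (adjusted p = 0.00222 and 0.00577). Atxn1l, a partner that stabilises the Cic protein, was singled out after its values were seen. Its log2 fold changes were -1.04 in 129 cells and -0.52 in B6J cells (adjusted p = 2.7e-06 and 0.000365). The ligase gene Cop1 was not called, with -0.10 and -0.11 (adjusted p = 0.361 and 0.319).

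The Trib genes encode pseudokinases that bring Cop1 to its substrates. Trib1 fell in both backgrounds, to 22.8 ± 2.0 CPM in 129 cells with iMEK, against 41.5 ± 2.0 CPM with DMSO, and to 33.6 ± 1.3 CPM in B6J cells with iMEK, against 67.8 ± 4.7 CPM with DMSO (SD, n = 3 each). Its log2 fold changes were -0.86 and -1.02 (adjusted p = 1.99e-05 and 6.6e-06). Like Etv4 it was higher in B6J than in 129 cells with DMSO (0.71, adjusted p = 0.000139), and unlike the Etv4 value its difference with iMEK was also called (0.56, adjusted p = 0.000763). Trib2 rose in 129 cells (0.64, adjusted p = 0.0327), and that call was lost with the replicate block (adjusted p = 0.0539) and with the fibroblast covariate (0.09, adjusted p = 0.806). Trib3 fell in B6J cells (-0.68, adjusted p = 0.00243) and had a log2 fold change of 0.21 in 129 cells (adjusted p = 0.234).

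Most of the immediate early genes that SRF and its ETS partners are known to drive fell. Of 13 immediate early targets of SRF and the ternary complex factors, 8 fell with iMEK in 129 cells and 9 in B6J cells, with median log2 fold changes of -1.42 and -1.09, and none rose in either (0 also at an unadjusted p under 0.05, with DESeq2 and with limma-voom). Over all genes tested, 18.2% were called lower in 129 cells and 16.5% in B6J cells. Egr1 averaged 8.19 ± 1.87 CPM in 129 cells with iMEK and 261.4 ± 63.0 CPM in 129 cells with DMSO (log2 fold change -4.998, SE 0.225, adjusted p = 1.88e-07), and 9.84 ± 1.37 CPM in B6J cells with iMEK and 148.6 ± 7.8 CPM in B6J cells with DMSO (-3.92, SE 0.213, adjusted p = 6.46e-07; SD, n = 3 each). Fos fell by 1.96 in 129 cells and by 1.34 in B6J cells on the log2 scale (adjusted p = 1.25e-05 and 0.000163). The log2 values of Srf itself were -0.21 and -0.05 (adjusted p = 0.0744 and 0.679), and none of the 4 genes for SRF and its other cofactors was called in either background.

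Of 14 ERK feedback genes tested, 12 fell in 129 cells and 13 in B6J cells, with medians of -1.09 and -1.24, and none rose (0 also at an unadjusted p under 0.05, with DESeq2 and with limma-voom). The share of all genes called lower was 18.2% in 129 cells and 16.5% in B6J cells. Dusp6, the phosphatase that removes the activating phosphates of ERK, averaged 26.7 ± 0.7 CPM in 129 cells with iMEK and 91.6 ± 10.04 CPM in 129 cells with DMSO, and 40.2 ± 1.3 CPM in B6J cells with iMEK and 113.2 ± 6.3 CPM in B6J cells with DMSO (SD, n = 3 each). Its log2 fold changes were -1.78 and -1.49 (adjusted p = 2.38e-07 and 7.74e-07). Spry4, a Sprouty inhibitor of receptor signalling, had -1.35 and -1.68 (adjusted p = 3.79e-05 and 9.04e-06). Etv4 thus fell less than Dusp6 in 129 cells and more than it in B6J cells, a comparison of fitted values that was not tested.

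Of 7 genes known as Etv4 and Etv5 targets in mouse kidney, 4 fell and 2 rose (Mmp14 and Ret) in 129 cells, and 3 fell and 1 rose (Cxcr4) in B6J cells. Of all genes tested, 18.2% were called lower and 17.4% higher in 129 cells, and 16.5% and 14.6% in B6J cells. Dusp6, Met and Spred2 fell in both, and Myb fell in 129 cells. Dusp6 and Spred2 are also among the ERK feedback genes counted above, so the 2 lists are not separate. The values for Met, the receptor for hepatocyte growth factor, were -0.44 in 129 cells and -0.95 in B6J cells on the log2 scale (adjusted p = 0.00647 and 4.81e-05). Those for Spred2, an inhibitor of ERK signalling, were -0.55 and -0.57 (adjusted p = 0.0175 and 0.0156). With the fibroblast covariate Met in 129 cells (-0.31, adjusted p = 0.0937) and Spred2 in both backgrounds (-0.08 and -0.20, adjusted p = 0.675 and 0.206) were no longer called.

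Upstream, 10 genes for FGF ligands and receptors gave 5 lower (Fgf5, Fgf8, Fgf15, Fgf17 and Fgfr3) and 1 higher in 129 cells, and 3 lower (Fgf5, Fgf8 and Fgf15) and 1 higher in B6J cells. Among all genes tested, 18.2% were called lower and 17.4% higher in 129 cells, and 16.5% and 14.6% in B6J cells. Fgfr3 ranged from 0.993 to 1.73 CPM in 129 cells with iMEK and from 1.90 to 17.3 CPM in 129 cells with DMSO, and DESeq2 and limma-voom called 4 of the 10 lower in 129 cells. Fgf4 was the one that rose in each, to 221.5 ± 5.4 CPM in 129 cells with iMEK, against 94.0 ± 6.0 CPM with DMSO, and to 338.6 ± 15.2 CPM in B6J cells with iMEK, against 166.0 ± 34.3 CPM with DMSO (SD, n = 3 each). Its log2 fold changes were 1.24 and 1.03 (adjusted p = 1.65e-05 and 6.17e-05). Fgf5, a gene of formative cells, fell by 5.20 in 129 cells and by 3.63 in B6J cells on the log2 scale (adjusted p = 8.35e-07 and 7.67e-06). In the same order Fgf8 had -4.79 and -4.30 (adjusted p = 5.56e-05 and 0.000152), and Fgf15 had -1.35 and -1.83 (adjusted p = 0.000106 and 1.65e-05).

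Within the kinase cascade itself, the MEK gene Map2k1 was not called, with log2 values of 0.15 in 129 cells and 0.17 in B6J cells (adjusted p = 0.081 and 0.0587). That depended on the method. DESeq2 called both values higher (adjusted p = 0.0264 and 0.0117), as did edgeR with DESeq2 size factors (0.0497 and 0.0335), and limma-voom called neither. Mapk3, which encodes ERK1, fell by 0.29 in 129 cells and by 0.36 in B6J cells on the log2 scale (adjusted p = 0.0416 and 0.0186). Leaving out single libraries ended that call in 6 cases in 129 cells and in 3 cases in B6J cells. Sos2, a nucleotide exchange factor, the ERK-activated kinase gene Rps6ka2 and the adaptor gene Shc1 also fell in both backgrounds, by 0.30 to 1.06 in 129 cells and by 0.41 to 0.96 in B6J cells.

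Etv4 alone of the 8 had group means spanning at least 1 on the log2 scale, a span of 1.79. The genes whose centred log2 CPM over the 12 libraries lay nearest to its own were Kif1a, a kinesin motor (root mean square difference 0.193), Slc7a7, an amino acid transporter subunit (0.217), and Bcl2l11, which encodes the apoptosis activator Bim (0.217). The median difference over the 10767 genes compared was 0.791. Kif1a averaged 30.3 ± 1.9 CPM in 129 cells with iMEK and 78.3 ± 9.3 CPM in 129 cells with DMSO, and 34.9 ± 7.0 CPM in B6J cells with iMEK and 101.9 ± 6.1 CPM in B6J cells with DMSO (SD, n = 3 each). Slc7a7 had group means of 37.2, 94.5, 36.6 and 122.9 CPM in the same order of groups, and Bcl2l11 had 20.3, 44.5, 26.1 and 70.8 CPM.

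Promoter sequences of 300 bases were at hand for 6 of the 8 members in RefSeq on GRCm38.p6, namely Etv1, Etv5, Ets2, Elk1, Elk3 and Elk4. The ETS core GGAA, searched on both strands, was in every entry of these genes except 1 of the 2 for Etv5, and in 95.98% of all 32851 promoters. The longer ETS site CCGGAAGT was in 1 of the 3 entries for Elk4 and in 3.89% of all promoters. The Capicua sites TGAATGAA and TGAATGGA, held by 1.3 and 1.21% of all promoters, and the CArG box of SRF, held by 1.63%, were in none of the members' entries.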

How the data were processed

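The authors deposited 1 table of raw read counts per gene for 12 libraries, 3 in each of 4 groups. Per the submitters' processing notes, which assign no roles, the tools were DESeq, HTSeq 0.6.1p1, SAMtools and STAR 2.7.10, on GRCm38 (mm10). Annotation, strand setting and read length were not given in the sources used here. Libraries were polyA-selected and stranded, per the labels' protocols. Most counts from 1 to 20 were even (70.09 to 73.37% per library), so halved counts were tried too.

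Genes passing filterByExpr (min.count 10, min.total.count 15) were scaled by TMM and fitted with edgeR 4.0.16 (R 4.3.3) as 4 group means in 1 quasi-likelihood fit. P-values were adjusted by Benjamini-Hochberg over 16627 genes and called under 0.05. The 5 contrasts were iMEK minus DMSO in each background, their difference, and B6J minus 129 with iMEK and with DMSO. No 2 libraries of a group agreed within sampling noise (chi-square per degree of freedom 6.909 or more). DESeq2 1.42.0, limma-voom (limma 3.58.1), other scalings and filters, left-out libraries, a replicate block and a covariate (mean log2 CPM of 20 fibroblast markers) were alternatives. The covariate did not overlap between the iMEK and DMSO libraries of a background, so its fits extrapolate. The edgeR fit was tested on simulated data. CPM per kilobase used the union of GENCODE M21 exons. Intervals cover the spread between libraries only.

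Same-numbered libraries of the 129 groups deviated together (correlations of deviations from group means 0.442, 0.295 and 0.222), so the numbers were taken to pair them. The 129 libraries numbered 2 and 3 also deviated together across numbers (0.194 and 0.209), so the pairing of those numbers is not settled. Same-numbered libraries of the B6J groups did not deviate together.

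The 8 members, the gene lists and the alternatives were chosen with earlier results of these data known. The text names the 8 members, listed genes fixed by rule (set genes of each list plus those called in both backgrounds, up to a limit) and the 3 nearest patterns of any member spanning at least 1 log2 unit. Further genes are named where 6 or fewer members of a list were called, and these and Atxn1l were chosen after their values were seen. Some genes of the kinase cascade are not reported here.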

Additional observations from a re-analysis of the deposited data

Results flagged for a closer look

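Among the genes named here, the response to iMEK differed between backgrounds, by the test of the difference itself, for 2 regulators of the PEA3 factors. Trib3 had a log2 fold change of -0.68 in B6J cells and 0.21 in 129 cells, a difference of -0.90 (SE 0.188, adjusted p = 0.042, edgeR's quasi-likelihood test). Its mean level was 41.1 ± 2.1 CPM with iMEK and 65.9 ± 7.6 CPM with DMSO in B6J cells, and 47.4 ± 7.8 CPM with iMEK and 40.9 ± 5.2 CPM with DMSO in 129 cells (SD, n = 3 each). Atxn1l had a log2 fold change of -0.52 in B6J cells and -1.04 in 129 cells, a difference of 0.52 (SE 0.108, adjusted p = 0.0392). Its mean level was 53.8 ± 1.6 CPM with iMEK and 77.1 ± 4.8 CPM with DMSO in B6J cells, and 41.1 ± 1.3 CPM with iMEK and 84.6 ± 7.3 CPM with DMSO in 129 cells (SD, n = 3 each). Both differences kept their sign under every alternative tried, but most left-out libraries and the replicate block (adjusted p = 0.0902 for Trib3 and 0.0885 for Atxn1l) ended the calls.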

How the results depend on the processing

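The falls of Etv4 in both backgrounds, its higher level in B6J with DMSO and the lower Ets2 level in B6J with iMEK kept their direction and call under every alternative. The Etv4 to Etv5 ratio was tried in 14 alternatives only, with libraries left out or counts halved. It stayed lower with iMEK in each (-1.63 to -1.46 on the log2 scale with single libraries left out), with a permutation p under 0.05. That followed from the full separation of the iMEK from the DMSO libraries, so it is no further evidence. The ratio test was not planned and rests on the same Etv4 values as the falls of Etv4. The number of members called in 129 cells, 1, was 2 with DESeq2 and without both 129 libraries numbered 1, 4 with the fibroblast covariate, 3 with the 129 groups alone and a replicate block (an alternative chosen after seeing the data), and 1 to 2 with single libraries left out. In B6J cells the number, 2, was 1 with DESeq2 size factors, with no filter and with the replicate block, 4 without both 129 libraries numbered 1, 5 with the covariate, and 1 to 4 with single libraries left out. For the difference between responses it was 2 with DESeq2 and 0 to 1 with single libraries left out. Between backgrounds it was 3 with DMSO and 3 with iMEK without both 129 libraries numbered 1, and 1 to 2 with single libraries left out for DMSO and for iMEK. Over all genes the difference between responses was called for 246, against 798 with DESeq2, 163 with limma-voom, 608 without both 129 libraries numbered 1, 156 with the replicate block, 788 with the covariate, and 73 to 586 with single libraries left out. With DMSO 3468 genes differed between backgrounds, against 2247 when its 2 groups were fitted alone. Elk3 turned sign with the covariate and was called there, at -0.28 in 129 cells and -0.40 in B6J cells. Values of other members that were not called also crossed 0 under some alternatives, with no call on the other side, among them Etv1 in 129 cells (0.20 with the covariate) and Elk4 in B6J cells (-0.07 with the covariate). The cause of these shifts was not tested. Same-numbered B6J libraries did not deviate together (correlations -0.188, 0.0883 and -0.17). The 8 members had 769 to 33400 counts in each library.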
